A study of Mus musculus with 27 samples.

Results

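The urea cycle and the periportal disposal of ammonia were followed through 9 genes, Cps1, Otc, Ass1, Asl, Arg1, Nags, Slc25a15, Slc25a13 and Gls2, in the liver of 2-week-old C57BL/6 mice. Each gene was read from the probe set that is listed with it alone and has the highest mean over all arrays, without the interquartile range filter that the study applied to all genes. This gave values for 7 of the 9 genes, among 18820 genes with such a probe set, and all 7 belonged to the 13279 genes with an intensity of 20 or more on 4 or more arrays. Ass1 shares both of its probe sets with Gm5424, a related locus, and Gls2 is listed with no probe set, so neither has a value of its own.

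Whole-liver RNA of 27 pups had been hybridised to 1 Affymetrix Mouse Gene 1.1 ST array per pup. There were 6 male and 6 female offspring of dams on a Western-style diet (WSD), and 6 male and 9 female offspring of dams on a low fat diet (LFD). Fat gave 45% of the energy in WSD and 10% in LFD, cholesterol stood at 196.5 mg per kg in WSD and 18.0 mg per kg in LFD, and the energy density was 4.73 kcal per g in WSD and 3.85 kcal per g in LFD. The dams received their diet for 6 weeks before mating and through pregnancy and lactation, and the sires were kept on control diet. Pups are named here by sex, maternal diet and number, so that m-WS1 is a male of a WSD dam and f-LF1 a female of an LFD dam.

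Hepatocytes around the portal vein turn ammonia into urea. In their mitochondria, carbamoyl phosphate synthetase (Cps1) joins ammonia to bicarbonate once N-acetylglutamate, made by Nags, has switched it on, and ornithine transcarbamylase (Otc) passes the product to ornithine. Citrulline leaves in exchange for ornithine through Slc25a15, aspartate leaves through Slc25a13 (citrin), and in the cytosol Ass1, Asl and Arg1 build argininosuccinate, split it to arginine and release urea. Gls2, the liver glutaminase, feeds ammonia from glutamine into the same cells, while the few hepatocytes around the central vein catch what escapes with glutamine synthetase (Glul).

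All arrays had median signals between 5.34 and 5.43 on the log2 intensity scale, and the mean over 10 hepatocyte markers lay between 12.81 and 12.89 in every pup. The libraries labelled m-LF6 and m-WS1 had Xist signals of 9.30 and 7.92, against at most 4.50 in the other males and at least 11.67 in females, so counts and calls in males are also given without them. The names of the arrays hold a prefix and a number of undefined meaning, and each number lies within 1 maternal diet, so number and diet cannot be told apart. The labels tie no pup to a litter: p-values measure the spread between pups, some of which may be siblings.

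No member passed the threshold of the study for a change with maternal diet, an unadjusted p of at most 0.01, here in limma. In males 0 of the 7 were called, where 5.14% of all genes were (2.79% rose and 2.34% fell), and in females 0 of the 7 were called, where again 5.14% of all genes were (3.66% rose and 1.48% fell). At an adjusted p under 0.05 the counts were also 0 of 7, where 0.452% of all genes passed in males and 0.294% in females. At an unadjusted p of at most 0.05, 1 member passed in males and 0 in females, where 13.3% and 14.4% of all genes did, and with IBMT, the test of the study, 0 members were called in either sex. The fitted log2 differences were positive for 6 members and negative for 1 in males, with a median of 0.065 against 0.0052 over all genes tested. In females they were positive for 1 and negative for 6, with a median of -0.032 against 0.013 over all genes. Without m-LF5, f-WS1 and f-WS2, 3 pups described further on, the signs in males were 5 positive and 2 negative, with a median of 0.011, and those in females 7 positive and 0 negative, with a median of 0.040. The median in males was 0.011 without m-LF5 alone. Without the libraries m-LF6 and m-WS1, the 6 members other than Slc25a13 had differences between 0.039 and 0.21 in males, with adjusted p-values between 0.377 and 0.864 in limma.

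The promoters of 3 members are shown: those of Nags and Slc25a13, which gave the smallest p-values of the 7, and that of Otc. Across pups Otc varied together with Cps1 (Pearson's r of 0.68 with group means removed). So did Slc25a15 (0.71), whose promoter is not printed. Of the 9 genes, 5 had an entry among RefSeq promoters of GRCm38.p6, which run over 300 bases from 250 before to 50 after a start site, and 4 of these 5 have values here. Cps1, Asl, Arg1 and Gls2 had none. Printed are the last 120 bases (119 for Slc25a13) of the window that lie before the outermost annotated start of the gene, 5′ to 3′ on the strand of the gene, with CG dinucleotides in capitals. They stand at chrX:10252110-10252229 on the plus strand for Otc, at chr11:102145393-102145512 on the plus strand for Nags, and at chr6:6217305-6217423 on the minus strand for Slc25a13.
Otc: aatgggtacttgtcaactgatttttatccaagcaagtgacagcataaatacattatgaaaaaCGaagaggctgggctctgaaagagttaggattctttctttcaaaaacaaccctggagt
Nags: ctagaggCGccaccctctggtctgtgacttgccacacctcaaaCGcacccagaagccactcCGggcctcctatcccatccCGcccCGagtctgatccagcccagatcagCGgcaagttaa
Slc25a13: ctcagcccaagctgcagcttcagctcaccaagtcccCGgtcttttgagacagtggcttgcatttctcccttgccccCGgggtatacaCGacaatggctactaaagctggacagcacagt

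The stretch of Otc holds 1 CG dinucleotide, that of Nags 6 and that of Slc25a13 3. Over the whole window, G and C made up 44.3% of the bases in Otc, 57.7% in Nags and 65% in Slc25a13, against a median of 52.7% over all 32851 windows. Windows were searched on both strands for 5 short motifs: TATAAA of the promoter's TATA box, CCAAT of the box of that name, TTGCNNAA of the core of C/EBP sites, CAAAG of the core of HNF4 sites and TGACG of cyclic AMP response elements. No match overlapped another. CAAAG occurred in Otc, 13 bases after the start site, and in Nags, 202 bases before it, as in 53.9% of all windows. TGACG occurred in Nags and Slc25a13, as in 20.8% of all windows, and CCAAT in Slc25a13, as in 37.4%. TATAAA and TTGCNNAA, found in 13.6% and 10.8% of all windows, did not occur in these letters. Neither of the windows of Slc25a15, on chromosome 8, held any of the 5.

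Nags (chr11:102145513-102149528), the enzyme that makes the activator of Cps1, had log2 signals of 9.12, 8.80, 9.09, 9.02, 8.95 and 8.97 in WSD males, against 9.09, 8.85, 8.75, 8.72, 8.74 and 9.05 in LFD males. Of the LFD males, m-LF3, m-LF4 and m-LF5 lay below all WSD males and m-LF2 below all but m-WS2. The pups m-LF1 and m-LF6 lay among the highest, so the groups overlapped. Nags averaged 8.99 ± 0.12 in WSD males and 8.87 ± 0.17 in LFD males (SD, n = 6 each), a fitted difference of 0.13 with a 95% confidence interval of -0.013 to 0.27 (limma, adjusted p = 0.44). In females the signals were 8.80, 8.70, 8.99, 8.92, 9.03 and 9.01 on maternal WSD, against a lowest of 8.82, a median of 8.97 and a highest of 9.12 on maternal LFD. The 2 lowest WSD females, f-WS1 and f-WS2, lay below all 9 LFD females and the other 4 within their range. The fitted difference in females was -0.067 (interval -0.19 to 0.061, adjusted p = 0.686 in limma).

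Cps1 (chr1:67122426-67231267) had log2 signals of 12.68, 12.62, 12.72, 12.79, 12.78 and 12.78 in WSD males, against 12.78, 12.69, 12.74, 12.70, 12.37 and 12.70 in LFD males. Apart from m-LF5, the lowest of all 27 pups, the LFD males lay within the range of the WSD males. The means were 12.73 ± 0.067 in WSD males and 12.66 ± 0.15 in LFD males (SD, n = 6 each), and the fitted difference of 0.065 corresponds to 4.61%, with an interval of -3.43% to 13.3% (limma, adjusted p = 0.681). Without m-LF5 the difference was 0.0070. In females the signals were 12.57, 12.42, 12.68, 12.67, 12.78 and 12.80 on maternal WSD, against 12.62 to 12.74 with a median of 12.69 on maternal LFD. The WSD females spread to both sides of the LFD females, f-WS1 and f-WS2 below and f-WS5 and f-WS6 above all 9 of them. Their SD was 0.14, against 0.033 in LFD females, and the fitted difference was -0.040, or -2.75% with an interval of -9.59% to 4.62% (limma, adjusted p = 0.777).

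Otc (chrX:10252230-10321024), which makes citrulline, lay between 11.41 and 11.54 in WSD males, with a median of 11.50, and between 11.37 and 11.55 in LFD males, with a median of 11.46. WSD males thus lay inside the range of LFD males. In females it lay between 11.26 and 11.60 on maternal WSD, with a median of 11.43, and between 11.41 and 11.52 on maternal LFD, with a median of 11.46. The fitted differences were 0.023 in males (interval -0.063 to 0.11) and -0.032 in females (interval -0.11 to 0.046), with adjusted p-values of 0.872 and 0.756 in limma. Without m-LF5 the difference of Otc in males was 0.011. Within groups Otc was among the steadiest genes, with a residual SD of 0.072, at percentile 8.99 of the genes tested.

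The carrier of ornithine and citrulline, Slc25a15 (chr8:22375550-22398621), lay between 10.19 and 10.61 in WSD males and between 9.94 and 10.60 in LFD males, with medians of 10.41 in both. In females it lay between 10.21 and 10.47 on maternal WSD and between 10.19 and 10.71 on maternal LFD, with medians of 10.37 and 10.29. The groups overlapped along most of their range in both sexes. The fitted differences were 0.024 in males (interval -0.16 to 0.21) and -0.0074 in females (interval -0.17 to 0.16), with adjusted p-values of 0.953 and 0.982 in limma. Without m-LF5 the difference of Slc25a15 in males was -0.060.

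Slc25a13 (chr6:6041218-6217304), the carrier that supplies cytosolic aspartate, gave the smallest p-value of the members. Its log2 signals were 10.65, 10.41, 10.59, 10.51, 10.73 and 10.58 in WSD males, against 10.72, 10.67, 10.71, 10.71, 10.75 and 10.56 in LFD males. Of the LFD males, m-LF5 lay above all WSD males, and m-LF1, m-LF2, m-LF3 and m-LF4 above all but m-WS5. The pup m-LF6 lay among the WSD males. The means were 10.58 ± 0.11 in WSD males and 10.69 ± 0.069 in LFD males (SD, n = 6 each). The fitted difference was -0.11, or -7.15% with an interval of -12.5% to -1.47%, with an unadjusted p of 0.0162 in limma (adjusted p = 0.234). Without the libraries m-LF6 and m-WS1 it was -0.15, with an unadjusted p of 0.0021 in limma (adjusted p = 0.082), and thus past the threshold of the study. Leaving out m-LF6, m-WS1 or m-WS5 alone also took it past the threshold, at -0.13, -0.12 and -0.14. Other omissions weakened it: over all single pups it ran from -0.14 to -0.074. Without m-LF5 alone it was -0.094, with an unadjusted p of 0.041 in limma (adjusted p = 0.345). In females the signals were 10.65, 10.61, 10.61, 10.65, 10.59 and 10.64 on maternal WSD, against 10.51 to 10.68 with a median of 10.57 on maternal LFD, where all 6 lay within the range of the 9. The fitted difference in females was 0.042 (interval -0.037 to 0.12, adjusted p = 0.678 in limma).

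**Figure D1:**
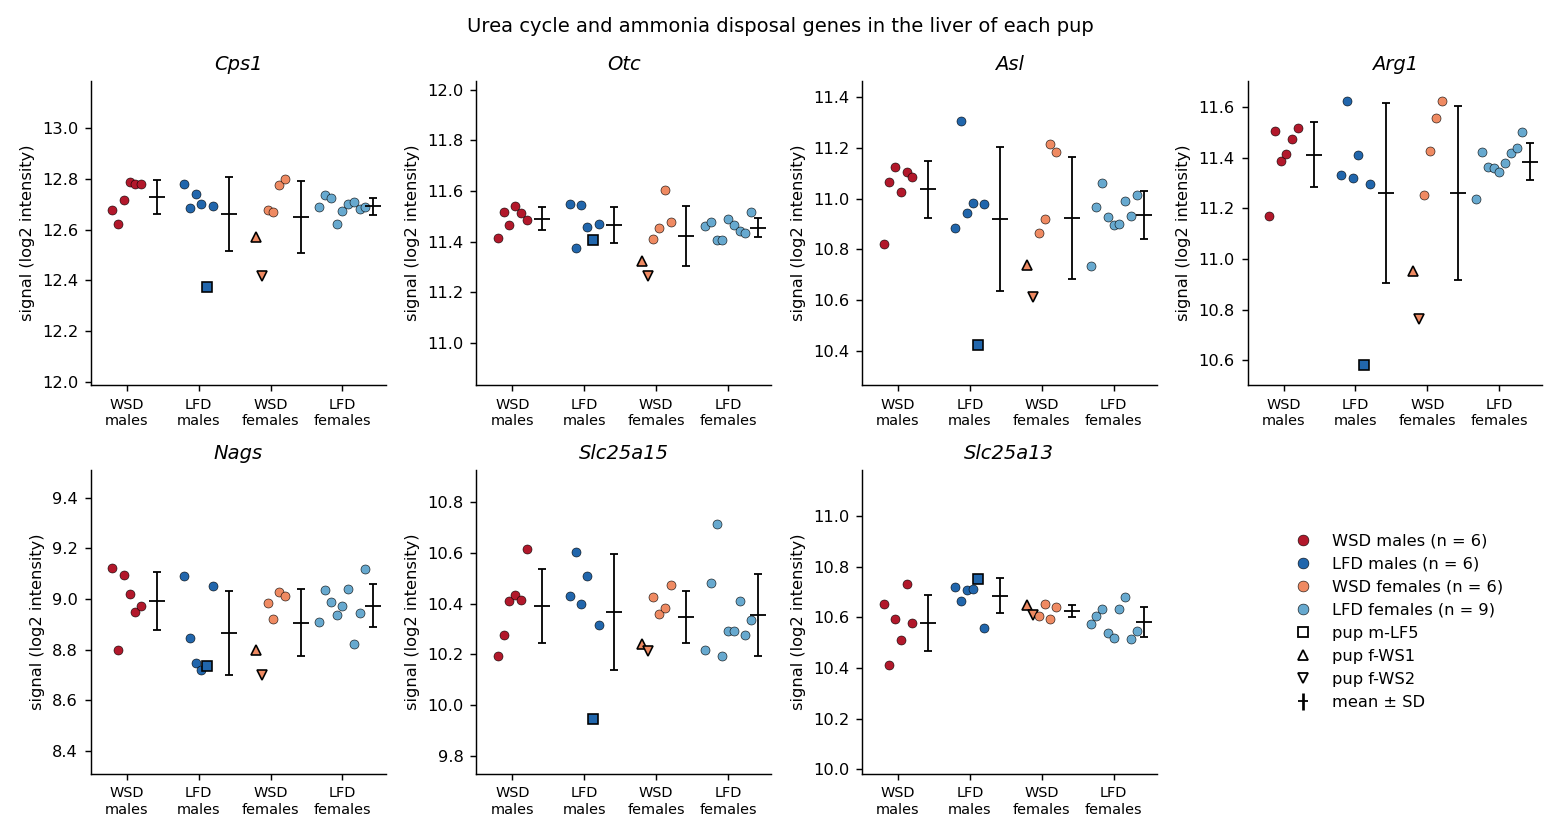
Log2 signal of the 7 measured members (vertical axes, all of the same span) in every pup, by sex and maternal diet, with the mean and SD of each group beside the points. The pup m-LF5 (square) lies lowest of all 27 in Cps1, Asl, Arg1 and Slc25a15, and f-WS1 and f-WS2 (triangles) lie low in most panels, whereas Slc25a13 and Otc spread least.

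In the cytosol, Asl (chr5:130011258-130024381), which splits argininosuccinate, lay between 10.82 and 11.12 in WSD males, with a median of 11.07, and between 10.42 and 11.30 in LFD males, with a median of 10.96. In females it lay between 10.61 and 11.22 on maternal WSD and between 10.73 and 11.06 on maternal LFD, with medians of 10.89 and 10.93. The wider group enclosed the narrower in both sexes. The fitted differences were 0.12 in males (interval -0.089 to 0.32) and -0.012 in females (interval -0.20 to 0.18), with adjusted p-values of 0.679 and 0.973 in limma. Without m-LF5 the difference of Asl in males was 0.018.

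Arg1 (chr10:24915207-24927470), the arginase that releases urea, lay between 11.17 and 11.52 in WSD males, with a median of 11.44, and between 10.58 and 11.62 in LFD males, with a median of 11.33. In females it lay between 10.76 and 11.62 on maternal WSD, with a median of 11.34, and between 11.24 and 11.50 on maternal LFD, with a median of 11.38. It was the most variable member, with a residual SD of 0.24, at percentile 94 of the genes tested, against 0.19 for Asl. The fitted difference in males was 0.15, or 11% with an interval of -7.48% to 33.1% (limma, adjusted p = 0.676), and without m-LF5 it was 0.014. In females it was -0.12, or -8.2% with an interval of -22.2% to 8.35% (limma, adjusted p = 0.69), and without f-WS1 and f-WS2, the only pups of number 39, it was 0.079. Within the prefix of the array names that 2 WSD and 4 LFD females share, the difference was -0.39, past the threshold of the study (unadjusted p of 0.00605 in limma, adjusted p = 0.472); within the other prefix it was 0.012.

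The 2 probe sets listed with Ass1 and Gm5424 together cannot be assigned to either gene and stand outside all counts. The first had a median of 12.38 in WSD males and 12.27 in LFD males, and of 12.29 in WSD females and 12.30 in LFD females, with f-WS2 lowest of all 27 pups at 11.84. Its fitted differences were 0.12 in males (interval -0.043 to 0.29) and -0.095 in females (interval -0.25 to 0.056), and the second probe set gave 0.12 and -0.093.

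The response to maternal diet was then compared between the sexes. The difference between the response of males and that of females passed the threshold for 0 of 7 members, where 2.45% of all genes passed, and 2 members had an unadjusted p of at most 0.05, where 9.69% of all genes did. It was positive for 6 and negative for 1. For Slc25a13 it was -0.15 (interval -0.26 to -0.033), with an unadjusted p of 0.0139 in limma (adjusted p = 0.412). Without m-LF6 and m-WS1 it was -0.19, with an adjusted p of 0.241 in limma, and leaving out m-LF6, m-WS1, m-WS5 or f-LF7 alone also took it past the threshold, with values between -0.18 and -0.16. Over all single pups left out it ran from -0.18 to -0.12. For Nags it was 0.19 (interval 0.0037 to 0.38), with an unadjusted p of 0.046 in limma (adjusted p = 0.505), and for Arg1 it was 0.27 (interval -0.081 to 0.63). Without m-LF5 alone the value of Arg1 was 0.14, and without m-LF5, f-WS1 and f-WS2 it was -0.065, when 1 member was positive and 6 were negative. The other 4 members had differences between 0.031 and 0.13, with intervals that held 0.

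**Figure D2:**
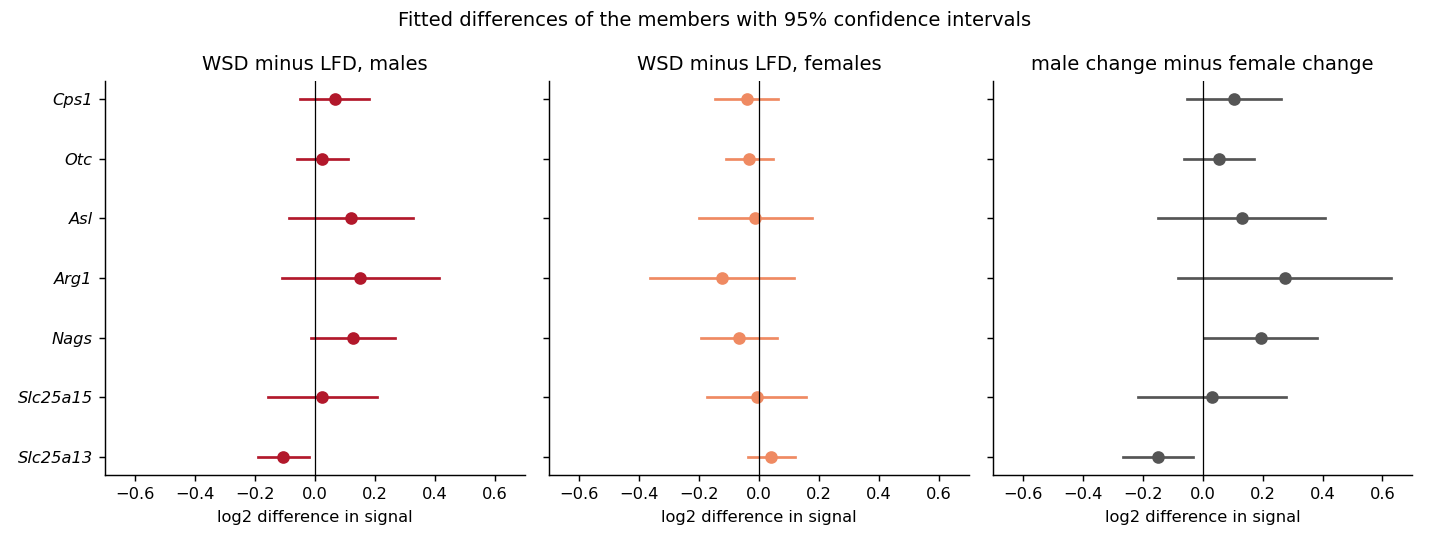
Fitted log2 differences (horizontal axes) of the 7 members between WSD and LFD males, between WSD and LFD females, and between these 2 responses, as points with 95% confidence intervals from limma. The interval of Slc25a13 leaves out 0 in males (-0.11) and in the difference between the sexes (-0.15), as does that of Nags in the difference (0.19), and no other interval does.

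Between the sexes on the same maternal diet, 0 of 7 members were called either on WSD, where 3.25% of all genes were, or on LFD, where 1.34% were. Slc25a13 was nearest to the threshold, on maternal LFD: males averaged 10.69 ± 0.069 and females 10.58 ± 0.059, a fitted difference of 0.10 with an unadjusted p of 0.0117 in limma (adjusted p = 0.693). Leaving out m-LF6, m-WS2, m-WS5, f-LF3 or f-LF7 alone, or m-LF6 and m-WS1 together, made the count on LFD 1, with Slc25a13 as the member. The count on LFD was also 1 with number in the array names as a random block. On maternal WSD males averaged 10.58 ± 0.11 and females 10.62 ± 0.024, a difference of -0.046. Between males and females on maternal WSD, 6 members had positive differences and 1 a negative one, with 0.15 for Arg1 as the largest of the 7 and adjusted p-values from 0.606 to 0.925 in limma.

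Single pups set much of the spread of the members. The pup m-LF5 was the lowest of all 27 in 4 of 7 members, at 12.37 for Cps1, 10.42 for Asl, 10.58 for Arg1 and 9.94 for Slc25a15, and the highest in Slc25a13, at 10.75. Its neutrophil and myeloid precursor markers, 14 genes, lay 1.00 above the median of its group in mean log2 signal, its 11 macrophage and Kupffer cell markers 0.55 and its 7 erythroid markers 0.63 above, whereas its 10 hepatocyte markers lay 0.035 below. Its 6 B lymphocyte markers lay 0.48 below, at 5.55, the lowest of all 27 pups. In whole liver, a difference in cell numbers and one in RNA per cell cannot be told apart. The part of these cell types in the values of m-LF5 was not tested. The females f-WS1 and f-WS2, of number 39, had Arg1 at 10.95 and 10.76, against 11.25 to 11.62 in the other 4 WSD females. Their hepatocyte markers lay 0.022 and 0.010 above the median of their group, and their neutrophil markers 0.061 and 0.61 below it. Their B lymphocyte markers lay 0.60 above it in f-WS1 and 0.54 below it in f-WS2. Among the gene lists counted further on, amino acid breakdown was low in m-LF5, f-WS1 and f-WS2 too. Its mean log2 signal lay 0.19, 0.15 and 0.23 below the median of the group. Other periportal genes lay 0.047, 0.20 and 0.19 below it. Pericentral genes lay 0.15 below it in m-LF5 but 0.064 and 0.081 above it in f-WS1 and f-WS2.

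Across the 27 pups, with the mean of each group removed, 6 of the members varied together, while Slc25a13 had values near 0 with each of them. All 15 pairs without Slc25a13 had a positive Pearson's r, with a median of 0.59, from 0.21 for Otc with Slc25a15 to 0.94 for Asl with Arg1. The 6 pairs with Slc25a13 ran from -0.18 to 0.099. Members of a pup share its array and RNA, so these values describe the pups and carry no test. Without m-LF5, f-WS1 and f-WS2, 11 of the 15 pairs stayed positive and their median was 0.28. In these pups Slc25a13 had 0.43 with Cps1 and 0.31 with Slc25a15, and -0.12 to 0.0079 with the other 4. Asl and Arg1, the last enzymes of the cycle, had 0.87 in these 24 pups, while Cps1 with Otc had 0.51, against 0.68 in all pups, and Cps1 with Arg1 had 0.28, against 0.84.

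**Figure D3:**
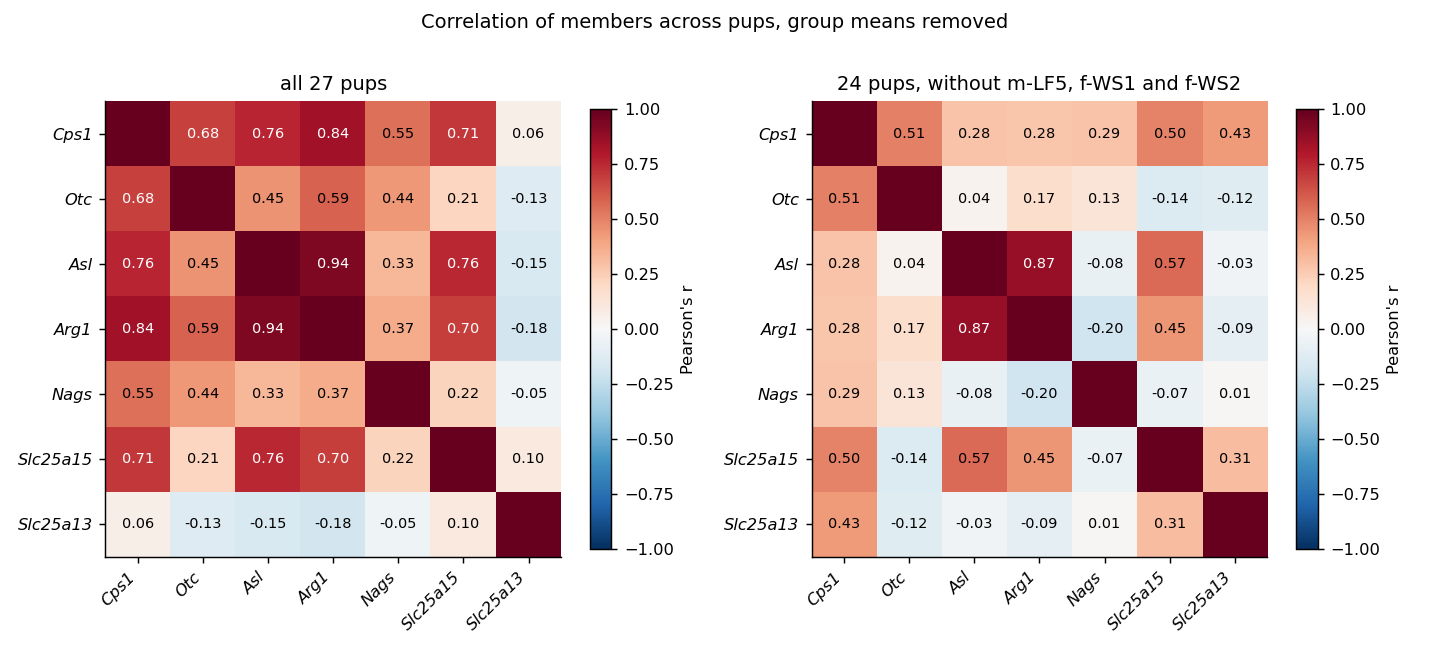
Pearson's r between each pair of members across pups after the mean of each group was removed, in all 27 pups and in the 24 pups without m-LF5, f-WS1 and f-WS2. Asl with Arg1 has the highest value in both (0.94 and 0.87), and Slc25a13 with Cps1 has 0.058 in all pups and 0.43 in the 24.

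The genes whose signal across the 27 pups was most like that of Cps1, by Pearson's r over 13272 genes other than the members, were Dcaf11 (0.90), Cdhr5 (0.88), Ttc39b (0.87), Aass (0.85) and Adk (0.85), where the median of all genes was 0.018. Aass starts the breakdown of lysine, and Adk is adenosine kinase. Most like the mean of the 7 members were Cdhr5 (0.91), Dcaf11 (0.90), Mdh1 (0.86), Kmo (0.86) and Abca3 (0.86), of which Mdh1 is the cytosolic malate dehydrogenase and Kmo an enzyme of tryptophan breakdown. Without m-LF5, f-WS1 and f-WS2 the first 5 had r between 0.64 and 0.75 with Cps1. With the mean of the members Kmo had 0.81, while Cdhr5, Dcaf11, Mdh1 and Abca3 had 0.70, 0.64, 0.64 and 0.61. Most like Cps1 in these pups were instead Enpep, Sult1d1, Sdha, Pros1 and Hgd.

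Genes that work next to the cycle were counted in lists. Over all genes tested, 2.79% rose and 2.34% fell in males, and 3.66% rose and 1.48% fell in females. Counts near these shares mark no trait of a list. Many calls in the lists lie close to the threshold, so those that end when the number in the array names is taken as a random block, or when a single pup is left out, are given beside each list. Among 19 tested partners of the cycle, which supply or return its nitrogen and carbon, 1 rose and 1 fell in males. Mdh1 lay between 11.25 and 11.42 in WSD males, against 10.94 and 11.30 in LFD males, and rose by 0.14 ± 0.047 (SE; limma, adjusted p = 0.146). Slc25a22, a mitochondrial glutamate carrier, lay between 8.93 and 9.17 in WSD males, against 9.16 and 9.50 in LFD males, and fell by 0.30 (SE 0.086; limma, adjusted p = 0.101). In females 1 partner fell and 0 rose: Slc25a12, the aspartate and glutamate carrier related to Slc25a13, lay between 8.77 and 9.05 in WSD females, against 8.92 and 9.09 in LFD females, and fell by 0.13 (SE 0.042; limma, adjusted p = 0.165). The median difference of the list was 0.0055 in males and -0.042 in females. Mdh1 was not called with number as a block (unadjusted p of 0.0132 in limma), nor without m-LF5, m-WS3, m-WS4 or m-WS6 alone. Slc25a12 lost its call in females when any 1 of 9 females, f-WS1 and f-WS2 among them, was left out. Without m-LF6 and m-WS1 the counts of partners in males were again 1 and 1.

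Of 13 genes that otherwise use ornithine and arginine, 2 fell in males and 1 rose in females. Azin1, which shields ornithine decarboxylase from its antizyme, fell by 0.22 in males, at 8.08 ± 0.14 in WSD males and 8.29 ± 0.093 in LFD males (SD, n = 6 each; limma, adjusted p = 0.19). The call of Azin1 in males ended when any 1 of 15 pups was left out, and also without m-LF6 and m-WS1, when 1 gene of the list fell. Its response differed between the sexes at the threshold of the study, by -0.35 (limma, adjusted p = 0.381). Nos3, the endothelial nitric oxide synthase, fell by 0.26 in males (limma, adjusted p = 0.103). In males 2 of 8 endothelial markers fell too, while the list held 4 positive and 4 negative differences, with a median of -0.015. Odc1, the ornithine decarboxylase that opens polyamine synthesis, rose by 0.26 in females, at 8.10 ± 0.14 in 6 WSD females and 7.84 ± 0.15 in 9 LFD females (limma, adjusted p = 0.102). In males Odc1 averaged 8.15 ± 0.17 on maternal WSD and 8.00 ± 0.12 on maternal LFD (SD, n = 6 each). It was called neither in males nor for a difference between the sexes.

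Of 13 carriers that bring amino acids into cells, 4 fell and 0 rose in males, and 0 passed in females. Slc1a4, a carrier of alanine, serine and cysteine, lay between 8.77 and 9.21 in WSD males, against 9.15 and 9.85 in LFD males. Only the ends of these ranges overlapped, and Slc1a4 fell by 0.43 (SE 0.10; limma, adjusted p = 0.048). Slc7a5 and Slc3a2, which pair to carry large neutral amino acids, fell by 0.36 and 0.14 (limma, adjusted p = 0.0698 and 0.102). Slc16a10, which carries aromatic amino acids, fell by 0.43 in males (limma, adjusted p = 0.0763), and its difference in females was -0.27 (limma, adjusted p = 0.229). The response of Slc1a4 differed between the sexes by -0.53 (limma, adjusted p = 0.341). The carriers of basic amino acids Slc7a1 and Slc7a2 had differences of 0.034 and 0.28 in males, neither past the threshold. The median over the 13 carriers was -0.0076 in males and -0.035 in females. The calls of all 4 carriers in males, at the unadjusted threshold, held with number as a block and without any single pup. The adjusted p of Slc1a4 in limma was 0.134 with number as a block and 0.098 without m-LF5. Without m-LF6 and m-WS1 Slc1a4 fell by 0.52 (limma, adjusted p = 0.013).

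Enzymes that break amino acids down rose in part in males: 5 of 27 rose and 0 fell, and the median was 0.081 against 0.0052 over all genes. Hal, which removes ammonia from histidine, lay between 10.79 and 11.16 in WSD males, against 10.10 and 10.96 in LFD males, and rose by 0.41 ± 0.14 (SE; limma, adjusted p = 0.177). Amdhd1 and Ftcd, which act after it in histidine breakdown, rose by 0.21 and 0.20 (limma, adjusted p = 0.0698 and 0.103). Gldc, of the glycine cleavage system, lay between 10.38 and 10.56 in WSD males, against 9.97 and 10.41 in LFD males, and rose by 0.25 (limma, adjusted p = 0.0777). Bcat2, a transaminase of branched-chain amino acids, rose by 0.15 (limma, adjusted p = 0.15). With number as a block 4 of the 27 rose, as Hal was not called (unadjusted p of 0.0215 in limma). Hal also lost its call when any 1 of 7 males, m-LF5 among them, was left out, and Bcat2 when any 1 of 6 was, whereas Amdhd1, Ftcd and Gldc were called without any single pup. Without m-LF6 and m-WS1, 6 of the 27 rose, Hal by 0.52. In females 1 of 27 rose, where 3.66% of all genes did: Prodh2 by 0.10 (limma, adjusted p = 0.168). The median in females was 0.016, against 0.013 over all genes. Prodh2 was not called with number as a block (unadjusted p of 0.0119 in limma), nor without f-LF5, f-LF7, f-LF8, f-WS2 or f-WS5 alone. The response of Amdhd1 differed between the sexes by 0.23 and that of Gldc by 0.26, both at the threshold of the study (limma, adjusted p = 0.385 and 0.397). The call of Gldc for this difference ended with number as a block and when any 1 of 14 pups was left out, and neither was called without m-LF5, f-WS1 and f-WS2.

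**Figure D4:**
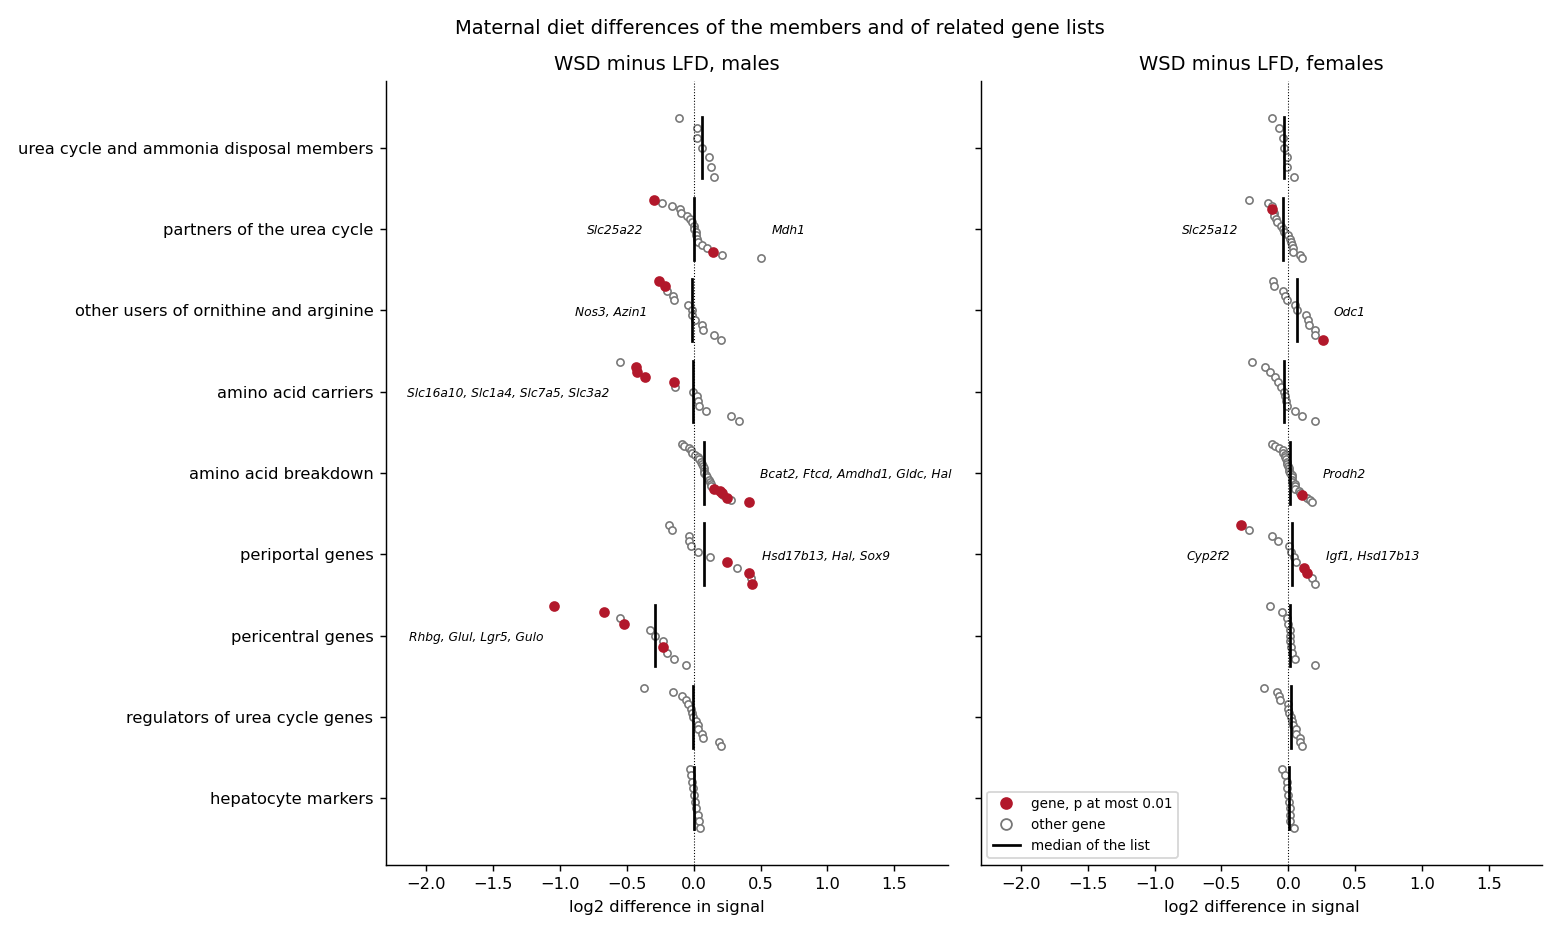
Fitted log2 differences between WSD and LFD pups (horizontal axes) for each gene of 9 lists (rows), in males and in females, where filled points passed an unadjusted p of 0.01, names beside a row give these genes from low to high, and bars mark the median of each list. The 7 members stay unfilled in both sexes, whereas 4 amino acid carriers and 4 pericentral genes fell and 5 genes of amino acid breakdown rose in males.

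Among 12 periportal genes other than the members, 3 rose in males and 2 rose and 1 fell in females. Hsd17b13, a lipid droplet protein, rose by 0.25 in males (limma, adjusted p = 0.0417). Its call at the unadjusted threshold held without any single pup. Its adjusted p in limma was 0.103 with number as a block, 0.080 without m-LF5 and 0.033 without m-LF6 and m-WS1. In females it rose by 0.14 (limma, adjusted p = 0.193), a call that held in 18 of 50 alternatives and ended with number as a block (unadjusted p of 0.0157 in limma). Besides Hal, the third to rise in males was Sox9, by 0.43 (limma, adjusted p = 0.101). Sox9 is also 1 of 4 tested markers of cholangiocytes, the cells of the bile ducts, and the other 3, Krt19, Krt7 and Epcam, had differences of -0.72, -0.27 and -0.17 in males, none past the threshold. In females Igf1 rose by 0.12 and Cyp2f2 fell by 0.35 (limma, adjusted p = 0.157 and 0.177), the last with 10.63 to 11.78 in WSD females, against 11.43 to 11.84 in LFD females. With number as a block 2 of the list rose in males, without Hal, and in females 1 rose and 0 fell, as Cyp2f2 was not called either. Cyp2f2 lost its call when any 1 of 8 females was left out, f-WS1 and f-WS2 among them, and Igf1 without f-LF5, f-WS3 or f-WS5. Without m-LF5, f-WS1 and f-WS2 the count in females was 3 that rose and 0 that fell, and without m-LF6 and m-WS1 the count in males was 4 and 0.

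At the other end of the lobule, 4 of 11 pericentral genes fell in males and 0 passed in females. All 11 had negative differences in males, with a median of -0.29. In females 7 were positive and 4 negative, with a median of 0.014. The mean log2 signal of the 11 ran from 9.29 to 10.08 in LFD females and from 9.54 to 9.95 in WSD females. Glul, the glutamine synthetase that takes up ammonia left by the urea cycle, lay between 10.63 and 11.03 in WSD males, against 11.18 and 11.64 in LFD males, and fell by 0.67 (SE 0.16; limma, adjusted p = 0.048), while Rhbg, an ammonia transporter, fell by 1.04 (SE 0.25; limma, adjusted p = 0.0538). Gulo and Lgr5 fell by 0.23 and 0.52 (limma, adjusted p = 0.136 and 0.158). With number as a block 3 fell, as Lgr5 was not called (unadjusted p of 0.0145 in limma). Lgr5 also lost its call without m-LF1, m-LF3, m-WS1, m-WS3 or m-WS4, and Gulo without m-LF1 or m-WS2. Glul and Rhbg were called at the unadjusted threshold without any single pup. The adjusted p of Glul in limma was 0.131 with number as a block, 0.076 without m-LF5 and 0.032 without m-LF6 and m-WS1. Without m-LF6 and m-WS1 the count was again 4, with falls of 0.71 for Glul and 1.14 for Rhbg. The difference between the responses of the sexes was negative for all 11, with a median of -0.35. It was -0.68 for Glul and -1.04 for Rhbg, both at the threshold of the study (limma, adjusted p = 0.385 and 0.39). Neither was called for it without m-LF5, f-WS1 and f-WS2, nor was Rhbg without m-LF1 alone.

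Of 15 regulators known to act on urea cycle genes, 0 passed in males and 0 in females at p of at most 0.01. The smallest p in males belonged to Cebpa, a C/EBP factor, which lay between 9.85 and 10.20 in WSD males, against 9.58 and 10.03 in LFD males, a difference of 0.20 (limma, adjusted p = 0.239). In females it belonged to Nr3c1, the glucocorticoid receptor, with 0.10 (limma, adjusted p = 0.272). Hnf4a, the hepatocyte nuclear factor, differed by -0.021 in males and 0.00061 in females. The 10 hepatocyte markers gave 0 calls in either sex, with medians of 0.0031 in males and 0.0016 in females.

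Markers of other cells moved with maternal diet in the same libraries. In males 4 of 14 neutrophil and myeloid precursor markers and 4 of 6 B lymphocyte markers rose, 2 of 8 endothelial and 2 of 9 stellate cell markers fell, and 0 of 11 macrophage and Kupffer cell markers and 0 of 7 erythroid markers passed. In females 0 of these passed in the main fit, whereas 7 neutrophil and 4 B lymphocyte markers rose without number 50. The neutrophil count in males ran from 0 without number 37 to 12 without number 50. The endothelial list in males held 4 positive and 4 negative differences. With number as a block the counts in males were 3 neutrophil and 1 stellate cell marker, as Ltf and Lrat were not called. The calls of S100a9, Ltf, Ctsg, Cd79a and Lrat each ended when certain single pups were left out, m-LF5 for Cd79a. Those of Cxcr2 (neutrophil), Igll1, Ebf1 and Pax5 (B lymphocyte), Clec4g and Vwf (endothelial) and Reln (stellate cell) held without any single pup. Igll1 rose by 1.14 and Vwf fell by 0.54 (limma, adjusted p = 0.0419 and 0.0374). With number as a block their adjusted p-values in limma were 0.0888 and 0.117. Within prefix 74 of the array names, 0 B lymphocyte markers rose and 0 stellate cell markers fell in males. Without m-LF6 and m-WS1 the counts in males were 3 neutrophil, 6 B lymphocyte, 2 endothelial and 2 stellate cell markers. Of 4 tested gut epithelium markers, 1 rose in males and 2 in females, Krt20 by 1.19 and 0.91 (limma, adjusted p = 0.00149 and 0.0106). The other in females was Fabp2, with a rise of 0.52 (limma, adjusted p = 0.00855). The mean log2 signal of the 6 B lymphocyte markers ran from 6.55 to 7.30 in WSD males, against 5.55 to 7.09 in LFD males. The part of these cells in the results on the lists was not tested.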

How the data were processed

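The authors deposited log2 intensities, made by RMA from all arrays together (background correction, quantile normalization, summarization; version not given in the sources used here). The 35556 probe sets are those of the array's maker, although the study's methods speak of probe sets regrouped by Entrez gene. Probe sets were named through the platform annotation, and symbols updated by Entrez identifier for 21185 of the 21218 listed with a single gene. Coordinates are those of RefSeq in GRCm38.p6.

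Genes with an intensity of 20 or more on 4 or more arrays were fitted with limma 3.58.1 (R 4.3.3) as 4 group means with an intensity trend, where the study used IBMT (run as an alternative). P-values were adjusted by Benjamini and Hochberg over 13279 genes. The fit was tested on simulated data. Intervals are 95% confidence intervals, not adjusted. The number of arrays limits precision. Named were all members, with the value of every pup for Cps1 and for members at p of at most 0.05. From each list up to 4 called genes were named by smallest p. In lists without a call the gene with the smallest p was named, except in the lists of cell markers, which were given by counts. All tested cholangiocyte markers were named beside Sox9. Named too were 5 genes most like Cps1 and like the members' mean. Bcat2, Hnf4a, Slc7a1 and Slc7a2 were named after their values were seen. The members and lists were chosen with earlier results of these data known. Figures were drawn with matplotlib in Python.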

Additional observations from a re-analysis of the deposited data

Results flagged for a closer look

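In 28 sets of 1 member and 1 group, the lowest or highest pup was compared with the others by Dixon's test. The test marked 4 values, and chance marks about 1 in 20 such sets. In m-LF5, Cps1 at 12.37 and Arg1 at 10.58 lay below the next LFD males, at 12.69 and 11.30. In m-WS1, Asl at 10.82 and Arg1 at 11.17 lay below the next WSD males, at 11.02 and 11.39.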

How the results depend on the processing

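The 0 of 7 members called under the study's threshold held in all 5 comparisons under 50 alternatives, with these exceptions. Leaving out 1 pup at a time gave 0 to 1 called member in males, for the difference between the sexes and between males and females on maternal LFD, where the member was Slc25a13 throughout. In males Slc25a13 was called without m-LF6 (-0.13), m-WS1 (-0.12) or m-WS5 (-0.14). Without m-LF6 and m-WS1 together the counts were 1 in males (-0.15), 1 for the difference (-0.19) and 1 between the sexes on LFD. Median-centred arrays, number as a random block, prefix 73 alone and leaving out number 40 also gave 1 between the sexes on LFD, and prefix 74 alone gave 1 in females (Arg1, -0.39) and 2 between the sexes on WSD (Asl and Arg1).

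Signs turned as follows. With array weights, Slc25a15 had -0.0077 in males and -0.00075 for the difference. With the replicate number as a replicate block, Asl had 0.0092 in females; the block changed no call of a member, and the pups share only a number (median r of 0.024 over 36 pairs of 1 number). Among list genes the replicate block ended the calls of Azin1 in males, of Slc25a12, Prodh2, Cyp2f2 and Hsd17b13 in females, and of Amdhd1, Gldc, Vwf and Krt7 for the difference, and it moved the neutrophil markers that rose in males to 8. Leaving out 1 pup at a time, Slc25a15 ran from -0.060 to 0.071 in males, from -0.032 to 0.037 in females and from -0.053 to 0.078 for the difference, and in females Asl ran from -0.071 to 0.050 and Cps1 from -0.070 to 0.0069. Within prefix 73, females had 0.0063 for Cps1, 0.11 for Asl, 0.012 for Arg1 and 0.041 for Slc25a15, and the difference for Slc25a15 was -0.014. Within prefix 74, males had -0.050 for Asl and -0.025 for Slc25a15. Without number 37 Slc25a15 had 0.050 in females, and without number 40 Asl had 0.00247. Without number 39, females had 0.039 for Cps1, 0.032 for Otc, 0.11 for Asl, 0.079 for Arg1, 0.012 for Nags and 0.054 for Slc25a15, and the differences were -0.0086 for Otc and -0.030 for Slc25a15. Without number 48, males had -0.013 for Cps1, -0.0014 for Otc and -0.13 for Slc25a15 (difference -0.086), and without number 50 they had -0.011 for Arg1 and -0.094 for Slc25a15 (difference -0.073). Without m-LF5, f-WS1 and f-WS2, a choice made after seeing the data, the values in females were again 0.039, 0.032, 0.11, 0.079, 0.012 and 0.054 for the same 6 members, Slc25a15 had -0.060 in males, and the differences were -0.032 for Cps1, -0.021 for Otc, -0.093 for Asl, -0.065 for Arg1 and -0.11 for Slc25a15.

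The interquartile range filter of the study leaves 4 of the 7 members, without Cps1, Otc and Slc25a13. The lowest adjusted p of any member under any setting was 0.082. Within prefix 74, with 3 WSD and 2 LFD males, no gene of the lists next to the cycle was called in males, and without m-LF5, f-WS1 and f-WS2 amino acid breakdown had 4 genes that rose in each sex. The cause of these changes was not tested.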
